A study of Homo sapiens with 6 samples.

Results

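IRAK4, IRAK1 and MYD88 encode the core of the Myddosome, the complex that carries signals from Toll-like and interleukin-1 receptors. Their isoforms were read here from splice junction counts of K562 cells with wild-type or S34F-mutant U2AF1. A junction was taken as a member when it lay, in hg19 coordinates, inside the region of its gene and on its strand: IRAK4 on the plus strand of chromosome 12, IRAK1 on the minus strand of chromosome X and MYD88 on the plus strand of chromosome 3. This gave 104 junctions of 780566 in the series, 41 of IRAK4, 49 of IRAK1 and 14 of MYD88. All 104 are accounted for below, most of them as counts and ranges.

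K562 is a chronic myeloid leukaemia line that carries the BCR-ABL1 fusion. In all, 3 libraries were from K562 in which wild-type U2AF1 had been knocked in (WT), and 3 from K562 of the U2AF1 S34F genotype (S34F). The labels name no further treatment. U2AF1, the smaller partner in the U2AF heterodimer, recognises the AG of 3′ splice sites. S34F, in its first zinc finger, recurs in myeloid neoplasms. The libraries were made from poly(A)+ RNA and held 18074706 to 39279169 uniquely mapped spliced reads, with S34F replicate 3 the deepest and S34F replicate 2 the shallowest. The labels do not say whether the libraries of a group were separate cultures or clones, so p-values measure the spread between these libraries, which may be technical. Markers of the cell line and the U2AF1 mutation itself were not analysed here.

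In the Myddosome, a receptor with a TIR domain recruits the adaptor MYD88, whose death domain assembles with that of the kinase IRAK4, and IRAK4 then recruits and activates the kinase IRAK1. Isoforms of each member are known to change this signalling. IRAK4 transcripts that include exon 4 encode the long protein with its complete N-terminal death domain, and skipping of the exon gives a shorter protein that lacks part of it. Inclusion of this exon has been reported for U2AF1-mutant myeloid neoplasms. MYD88 without exon 2 lacks the intermediate domain and does not recruit IRAK4, and the IRAK1 isoforms named b and c lack part of the protein and have no kinase activity. The comparison therefore asks which of these splice choices differed between S34F and WT. The sequences of the splice sites are not shown, because no genome of this build was used here.

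The cassette exon of IRAK4 lies at chromosome 12, 44165023 to 44165168 (hg19). It is 146 nt long, not a multiple of 3. Along the chain of best covered annotated junctions, which has 12 exons, it comes after 2 others. It is exon 4 when the annotated 48 nt exon at 44154728 to 44154775 is counted as exon 2, which is the numbering used here. Its inclusion level, the mean of the reads at its 2 flanking junctions over that mean plus the skipping reads, was 45.5%, 61.0% and 58.1% in WT and 78.0%, 76.0% and 71.7% in S34F. Every S34F library lay above every WT library, and WT replicate 1 was the lowest of all. The group means were 54.9% ± 8.3 and 75.2% ± 3.2 (SD, n = 3 each), so that S34F was higher by 20.4 percentage points. The change in log2 odds was 1.33 (SE 0.46), with an unadjusted p of 0.00885 and an adjusted p of 0.0857 in edgeR's quasi-likelihood test with Benjamini-Hochberg adjustment over 19137 exon and junction combinations. The exon thus missed the threshold of 0.05. Without WT replicate 1 the change was 0.99 and the adjusted p 0.172.

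Of all cassette exons tested, 2.72% were called (adjusted p under 0.05 and at least 10 percentage points) and 1.02% were called with higher inclusion in S34F. Groups that did not overlap were common, at 29.4% of all exons tested. Among the 4 member combinations tested, only that of IRAK4 exon 4 had groups that did not overlap. A difference as large as that of IRAK4 exon 4, in either direction, was seen in 1.6% of the exons, and an unadjusted p as low in 10.3%.

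None of the junctions that make up this value passed the test alone. Nearly all reads at the exon 3 site fell on the junction to exon 4 or on the skipping junction. The opposite directions of their shares are therefore not separate results. At the 5′ splice site of exon 3 (first intron base 44162076), the junction to exon 4 held 20 of 52, 17 of 32 and 12 of 27 reads in WT and 33 of 47, 14 of 20 and 33 of 52 in S34F. These are shares of 38.5%, 53.1% and 44.4% in WT against 70.2%, 70.0% and 63.5% in S34F. The site had as few as 20 reads in S34F replicate 2, where the 95% Clopper-Pearson interval ran from 45.7% to 88.1%, and in WT replicate 1 it ran from 25.3% to 52.98%; such intervals cover counting error only. In log2 odds this was 1.35 (SE 0.51, edgeR adjusted p = 0.125 over 51522 junctions).

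**Figure D1:**
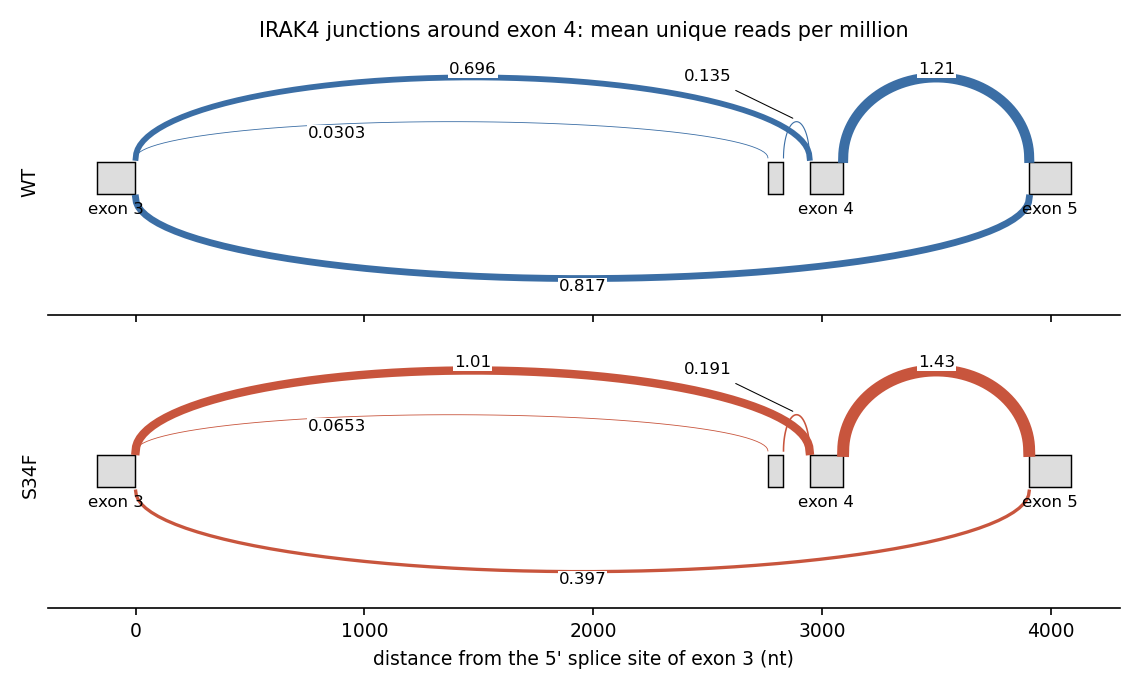
Annotated IRAK4 junctions between exon 3 and exon 5, drawn by distance in nt from the 5′ splice site of exon 3 for WT (top) and S34F (bottom). Each arc carries the mean over 3 libraries of the unique reads per 1000000 unique spliced reads (RPM), line width follows that mean, and the lower arc, which skips exon 4, was at 0.817 RPM in WT and 0.397 RPM in S34F.

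Exon 3 joined directly to exon 5, skipping exon 4, in 30, 15 and 13 reads in WT and in 10, 6 and 17 reads in S34F. As shares of the exon 3 site these were 57.7%, 46.9% and 48.1% in WT and 21.3%, 30.0% and 32.7% in S34F, again without overlap. The log2 odds differed by -1.47 (SE 0.52, edgeR adjusted p = 0.0991). Read from the acceptor of exon 5, the skipping junction took 50%, 33.3% and 35.1% in WT and 20%, 20% and 23.9% in S34F (log2 odds -1.27, SE 0.50, edgeR adjusted p = 0.18 over 48269 junctions). Both views use the same skipping reads, so they do not add independent evidence. An annotated 67 nt exon between exons 3 and 4, at 44164841 to 44164907, was rare: its upstream junction held 2 reads over the WT libraries and 5 over the S34F libraries, and its downstream junction 9 and 15.

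Across all member junctions, no event of the 3 genes was called. In the acceptor shares, which ask where a given 5′ splice site was joined, 13 member junctions passed the filter of at least 20 reads at the site in every library and at least 10 reads over the 6 libraries on each side, the junction itself and its competitors. Of these edgeR called 0, with 4 at an unadjusted p under 0.05, a level reached by 19.9% of all junctions tested. DESeq2 and limma also called 0, with 4 each. For edgeR these 4 come from 2 sites, the exon 3 site of IRAK4 and the exon 3 site of IRAK1, where the 2 competing junctions mirror each other. Over all junctions edgeR called 2.11%, and 25.2% had groups that did not overlap, against 5 of the 13 members. Of the same 51522 junctions DESeq2 called 150, with 6111 at an unadjusted p under 0.05, and limma called 0, with 9648. A 0 for the members in limma therefore says nothing about them. In the donor shares, which ask which 5′ splice site was joined to a given acceptor, 0 of 13 members were called by edgeR, with 2 at an unadjusted p under 0.05 (17.3% of all junctions tested), and DESeq2 and limma called 0 with 1 each. The background there was 0.934% called by edgeR and 22.4% without overlap, against 2 of the 13 members without overlap. DESeq2 called 185 of all 48269 junctions and limma 0, with 5914 and 7794 at an unadjusted p under 0.05. Of the 4 cassette combinations, 0 were called by any of these tools, with 1 at an unadjusted p under 0.05 in each (23.9% of all combinations in edgeR). DESeq2 called 272 of all 19137 combinations and limma 0, with 3400 and 4309 at that unadjusted level. For acceptor shares, 2 of 41 IRAK4 junctions, 9 of 49 IRAK1 junctions and 2 of 14 MYD88 junctions passed the filter. The others include well covered junctions whose site had no competing junction with enough reads, such as that from exon 8 of IRAK4.

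**Figure D2:**
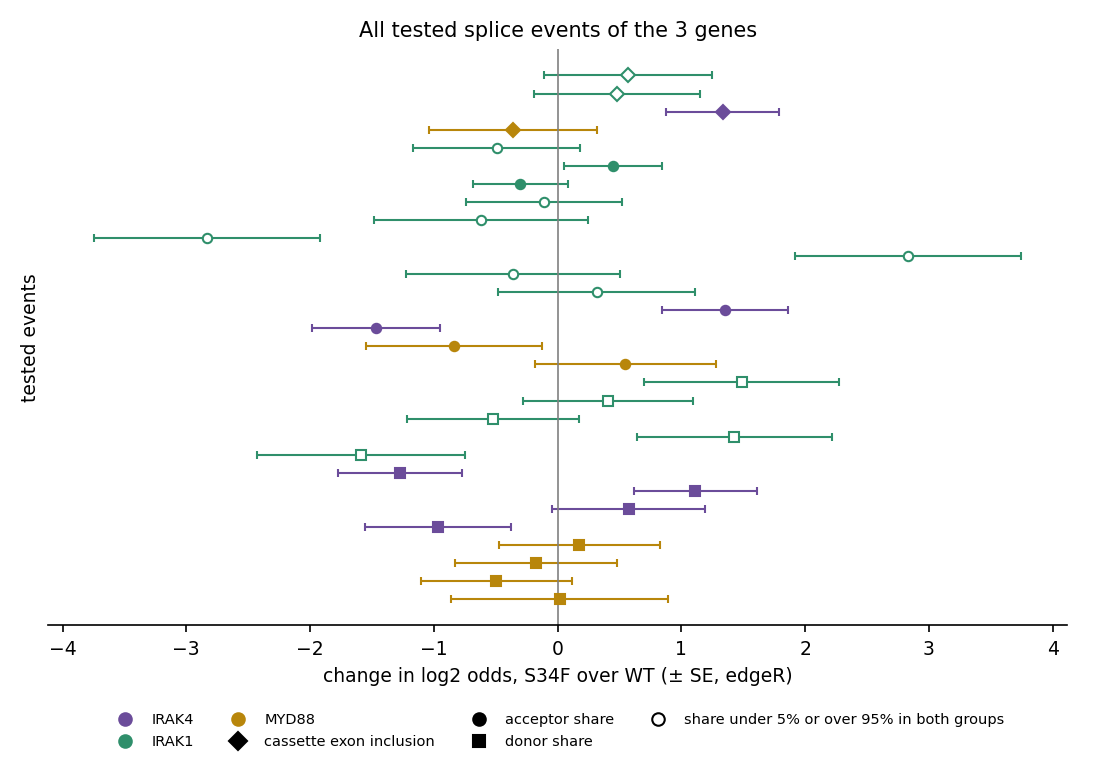
Change in log2 odds from WT to S34F (± SE, edgeR, n = 3 libraries each) for the 30 tested member events, with color for the gene and marker shape for the kind of share. Filled points have a mean share from 5% to 95% in a group. The widest bars, with an SE of 0.91, belong to the competing acceptors of IRAK1 exon 4, and the IRAK4 points at 1.33, 1.35 and -1.47 share reads.

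MYD88 exon 2 is the adaptor's exon for the intermediate domain, at chromosome 3, 38181355 to 38181489 (hg19), 135 nt long and a multiple of 3. Its inclusion was 87.8%, 96.2% and 96.7% in WT and 87.4%, 86.7% and 95.1% in S34F. S34F replicates 1 and 2 lay below every WT library, with 87.4% against 87.8% at the nearest, and S34F replicate 3 lay within the WT range. The means were 93.6% ± 5.0 and 89.7% ± 4.7 (SD, n = 3 each), and the log2 odds were lower by value in S34F, at -0.36 (SE 0.68, edgeR adjusted p = 0.792). The standard error was larger than the estimate, and a p above the threshold does not show equal inclusion. Without WT replicate 2 the change was 0.019.

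Skipping of MYD88 exon 2 rested on few reads. The junction from exon 1 to exon 3 held 6, 2 and 1 reads in WT and 7, 4 and 6 in S34F, of 28 to 119 reads at the exon 1 site. Its share there was 12.2%, 3.57% and 2.86% in WT and 13.7%, 14.3% and 5.04% in S34F. The highest WT share lay above the lowest S34F share, and the log2 odds differed by 0.55 (SE 0.73, edgeR adjusted p = 0.74). It was 1.47 without WT replicate 1 and 0.17 without WT replicate 2. At the same site, the junction from exon 1 to exon 2 took 87.8%, 94.6% and 97.1% in WT. In S34F it took 82.4%, 78.6% and 94.1%, and the groups overlapped. Its log2 odds differed by -0.84 (SE 0.71, edgeR adjusted p = 0.561) and ran from -1.61 to -0.51 over 12 alternatives. Both junctions draw on the reads of the exon 1 site, so they are not separate results. An annotated junction from exon 1 to exon 4, which leaves out exons 2 and 3, had 0 of 140 reads at the site over the WT libraries, which allows a share of up to 2.14%, and 5 of 198 over the S34F libraries, or 2.53%. The S34F share was above that limit by less than a percentage point, on those 5 reads, and the difference was not tested. Skipping of exon 3 alone was seen in 4 reads in each group.

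The 3′ end of MYD88 exon 3 had a further choice. An unannotated 5′ splice site, 19 nt upstream of the annotated one at 38182060, held 36 reads at junction 38182041 to 38182247, the most of any unannotated junction in the 3 genes. Its share at the exon 4 acceptor was 11.4%, 4.92% and 10.2% in WT and 5.75%, 9.09% and 5.99% in S34F. The groups overlapped, at 8.84% ± 3.4 and 6.94% ± 1.9 (SD, n = 3 each), at -0.50 in log2 odds (SE 0.61, edgeR adjusted p = 0.745). The value was -0.20 without WT replicate 1 and -0.81 without WT replicate 2. The annotated site took 84.8% to 93.4% in WT and 84.1% to 89.8% in S34F, and a further annotated site, at 38182084, had 1 read in WT and 5 in S34F.

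**Figure D3:**
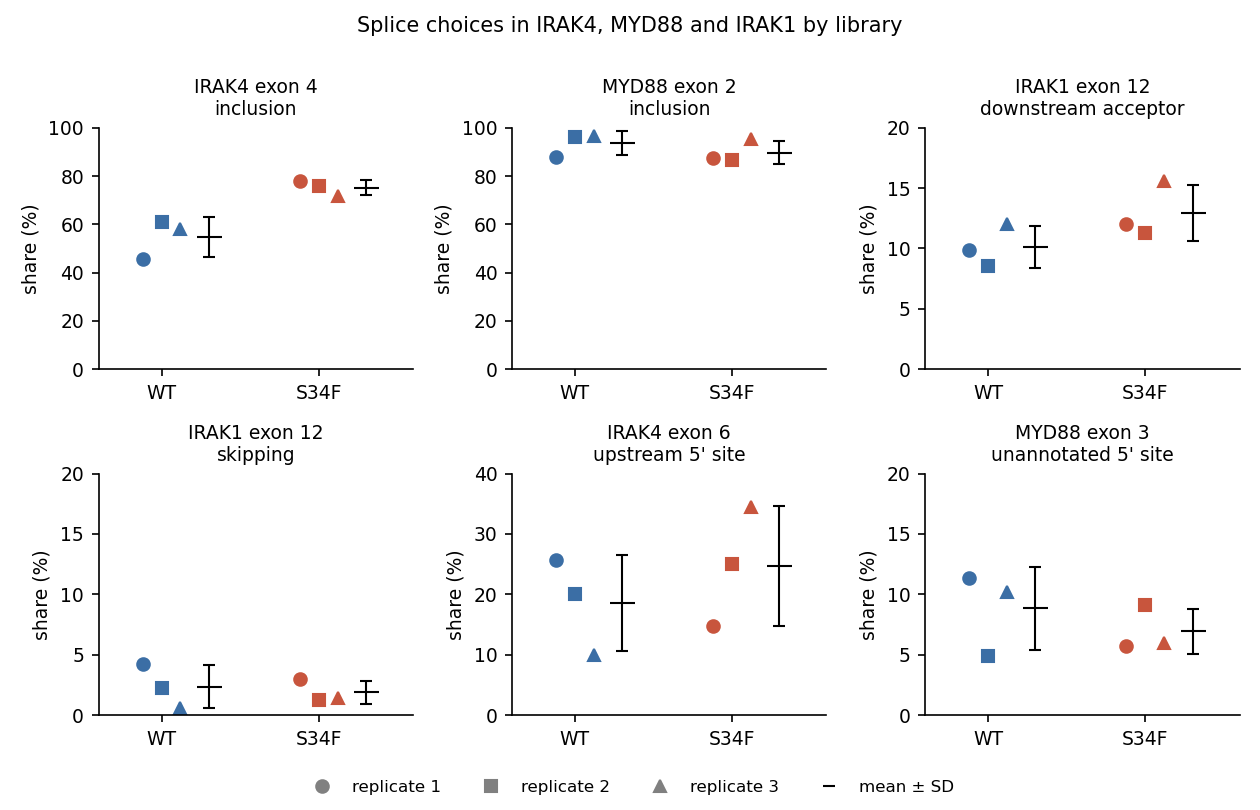
Share in percent for 6 splice choices in each library (marker shape: replicate; black bar: mean ± SD, n = 3), WT in blue and S34F in red; the vertical axes start at 0 and differ in their upper limit. The groups are apart only in the IRAK4 exon 4 panel, with 61.0% the highest WT value and 71.7% the lowest S34F value.

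IRAK1, the kinase downstream of IRAK4, had the best covered junctions. Its exon 12 has an annotated second acceptor 90 nt downstream of the first, a multiple of 3, whose use removes part of the protein as in the isoform called IRAK1b. This downstream acceptor, at 153278795 on the minus strand of chromosome X, took 9.86%, 8.56% and 12.03% of the reads from exon 11 in WT and 12.05%, 11.25% and 15.6% in S34F. The groups overlapped, since WT replicate 3 lay above S34F replicate 2, and S34F replicate 3 was the highest. The means were 10.1% ± 1.8 and 12.97% ± 2.3 (SD, n = 3 each). In log2 odds the difference was 0.45 (SE 0.40), an edgeR adjusted p of 0.582, from 158 to 487 reads per library at the site. Without S34F replicate 3 it was 0.24. The main acceptor at 153278885 took 87.3% ± 1.9 in WT and 85.1% ± 2.4 in S34F (edgeR adjusted p = 0.725).

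Skipping of IRAK1 exon 12, by an annotated junction to exon 13, took 4.23%, 2.25% and 0.633% in WT and 3.01%, 1.25% and 1.44% in S34F (log2 odds -0.49, SE 0.67, edgeR adjusted p = 0.748). Skipping of exon 11, which defines the isoform called IRAK1c, was read from 2 annotated junctions with 1, 5 and 1 reads in WT and 1, 2 and 4 in S34F. They sum to 7 unique reads in each group. Neither junction reached the 10 reads that the filter asks of each, with 6 and 8 unique reads. Multi-mapped reads, which are not counted here, numbered 17 and 4 at these junctions. Against the junction that includes exon 11 the skipping reads made up 0.38% to 2.04% in WT and 0.483% to 1.04% in S34F.

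A small unannotated IRAK1 acceptor, singled out after its values were seen, had the lowest adjusted p of the members. It lies at 153284521, 9 nt downstream of the annotated acceptor of exon 4 at 153284530. It held 5, 4 and 3 reads in WT and 1, 0 and 1 in S34F, which are 2.27%, 1.61% and 1.46% against 0.546%, 0% and 0.18% of the site. All S34F libraries were below all WT libraries, by 1.54 percentage points on average, at -2.83 in log2 odds (SE 0.91, edgeR adjusted p = 0.0718). The difference was below the minimum of 10 points and rests on 14 reads in all.

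An unannotated 5′ splice site of IRAK1 exon 9, 3 nt from the annotated one, carried 16 reads, 11 in WT and 5 in S34F, as many as the unannotated junctions of the exon 2 site. Its share at the exon 10 acceptor was 1.4%, 1.27% and 1.36% in WT and 0.437%, 1.35% and 0.129% in S34F, which overlapped (edgeR adjusted p = 0.341). Apart from the acceptors of exon 4 and exon 12, the other IRAK1 events tested had mean shares beyond 5% or 95% and edgeR adjusted p-values from 0.341 to 0.951. In IRAK1 as a whole, unannotated junctions took 0.582%, 0.545% and 0.582% of the gene's reads in WT. In S34F they took 0.385%, 0.504% and 0.209%. Their reads include those of the unannotated exon 4 acceptor, 12 in WT and 2 in S34F, so this is not a separate result. Those groups did not overlap, and the exact permutation test (two-sided) gave p = 0.1, the lowest value possible for 3 against 3 libraries, with an adjusted p of 0.3 over the 3 genes. For IRAK4 the same shares were 1.47% ± 0.35 and 1.51% ± 0.43, and for MYD88 2.70% ± 0.83 and 2.06% ± 0.46 (SD, n = 3 each; exact permutation p of 0.8 and 0.3, adjusted p of 0.8 and 0.45).

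IRAK4 had further choices upstream and downstream of exon 4. The annotated upstream 5′ splice site of exon 6, 86 nt before the main one, took 25.7%, 20% and 10% at the exon 7 acceptor in WT and 14.7%, 25% and 34.5% in S34F. The groups overlapped, and S34F replicate 3 was the highest (log2 odds 0.58, SE 0.62, edgeR adjusted p = 0.698). Without S34F replicate 3 the log2 odds were 0.011, and without WT replicate 3 they were 0.22. The main 5′ site took 74.3%, 80% and 90% in WT and 76.5%, 70% and 62.1% in S34F, which overlapped. Its means were 81.4% ± 8.0 in WT and 69.5% ± 7.2 in S34F (edgeR adjusted p = 0.427). An unannotated junction that skips exon 6 was singled out after its values were seen. At the exon 5 site it had 0 of 145 reads in WT, which allows up to 2.07%. In S34F it had 5 of 146, or 3.42%, a difference that was not tested. Those 5 reads are also counted at the exon 7 acceptor, in the total behind the shares of the exon 6 sites. In the 5′ region, exon 1 was joined to exon 3 in 14, 16 and 4 reads in WT and 16, 13 and 14 in S34F, and the 48 nt exon 2 was joined to exon 3 in 10, 8 and 8 and in 10, 4 and 18 reads. The exon 3 acceptor held 15 reads in WT replicate 3, too few for the share test. The unannotated 5′ splice site with the most reads in IRAK4, at 44153790, had 13 reads over 4 junctions, and the acceptor 4 nt past the annotated one of the last but one exon, at 44180205, had 4 reads in each group.

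Levels of the 3 genes were compared beside their splicing. IRAK4 had 19.6, 17.4 and 19.6 RPM over its junctions in WT and 20.7, 14.9 and 16.9 in S34F. IRAK1 had 128.4, 139.7 and 141.7 in WT and 110.7, 142.7 and 207.4 in S34F, so that S34F held both the lowest and the highest library. MYD88 had 11.2, 10.8 and 9.39 in WT and 13, 8.69 and 16.7 in S34F, again with both extremes in S34F. Group means were 18.8 ± 1.2 and 17.5 ± 2.9 for IRAK4, 136.6 ± 7.2 and 153.6 ± 49.3 for IRAK1, and 10.5 ± 0.95 and 12.8 ± 4.0 for MYD88 (SD, n = 3 each). All 3 differences were smaller than the spread of the S34F libraries (two-sided exact permutation p of 0.6, 0.7 and 0.5, adjusted p = 0.7 for each). Without S34F replicate 3, the IRAK1 difference of 16.9 RPM turned to -9.95. In bulk RNA, fewer cells with a transcript and less of it per cell cannot be told apart.

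**Figure D4:**
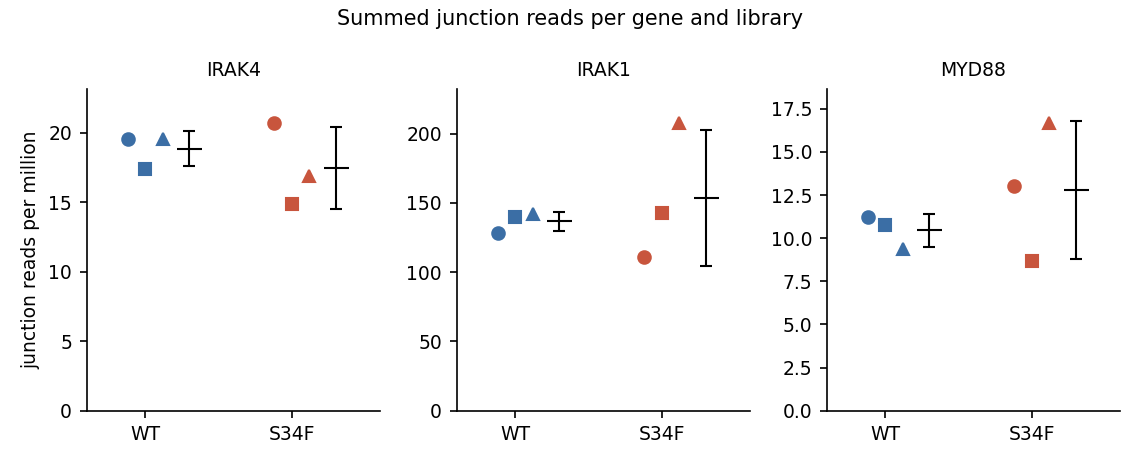
Unique junction reads summed over each gene, in RPM, for every library (marker shape: replicate; black bar: mean ± SD, n = 3), on vertical axes that start at 0. The S34F libraries spread more widely than the WT libraries in all 3 genes, from 110.7 to 207.4 for IRAK1.

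At single junctions, 31 of the 54 annotated member junctions had at least 10 reads in 3 libraries, and edgeR called 0 of them at an adjusted p under 0.05, where 0.198% of 114277 junctions were called. DESeq2 called 0 members, with 0 at an unadjusted p under 0.05, against 1311 and 11580 of all 114277 junctions. In edgeR a single member had an unadjusted p under 0.05, against 13.6% of all junctions. That member was the IRAK4 junction that skips exon 4, at 1.18, 0.602 and 0.671 RPM in WT and 0.426, 0.332 and 0.433 in S34F. Its log2 fold change was -1.06 (SE 0.43, edgeR adjusted p = 0.305). The groups did not overlap, but the share of all junctions without overlap was not counted for levels. Of the other IRAK4 junctions, the one into exon 4 had a log2 fold change of 0.50 (SE 0.36) and the one out of it 0.22 (SE 0.27), with edgeR adjusted p-values of 0.583 and 0.764. The median log2 fold change was -0.17 over 13 IRAK4 junctions, 0.15 over 14 IRAK1 junctions and 0.27 over 4 MYD88 junctions, beside 0.01 over all junctions. Without S34F replicate 3 the IRAK1 median was -0.055 and the MYD88 median 0.096, and the IRAK4 median ran from -0.32 without S34F replicate 1 to -0.085 without WT replicate 3.

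**Figure D5:**
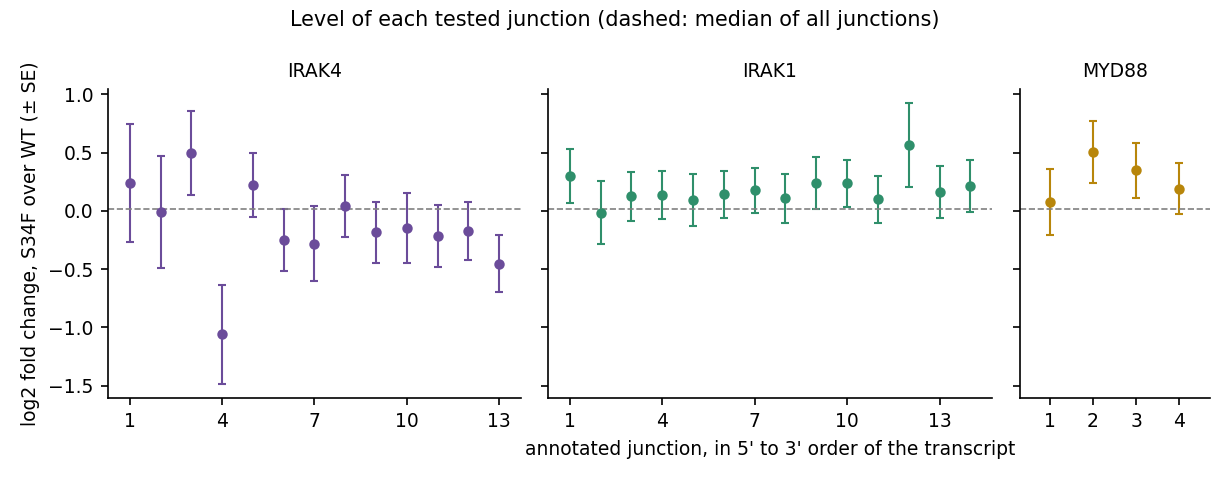
Log2 fold change from WT to S34F (± SE, edgeR, n = 3 libraries each) of each annotated junction tested, in 5′ to 3′ order of the transcript, for IRAK4 (13), IRAK1 (14) and MYD88 (4); the dashed line is the median of all junctions, 0.01. The IRAK4 junction that skips exon 4 is the lowest point, at -1.06.

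The remaining junctions were minor. Of the 104 members, 54 were annotated and 50 were not, and 17 of 19 unannotated junctions in IRAK4, 22 of 27 in IRAK1 and 3 of 4 in MYD88 had 5 reads or fewer over the 6 libraries. Read in all 6 libraries were 16 of 22 annotated IRAK4 junctions, 15 of 22 in IRAK1 and 5 of 10 in MYD88. In IRAK1, 8 annotated junctions did not reach the filter for levels, against 9 in IRAK4 and 6 in MYD88. Of these, 1 junction of IRAK1 and 2 of MYD88 are listed with multi-mapped reads only.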

How the data were processed

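Splice junctions were analysed in 3 WT and 3 S34F libraries of K562 cells. Per the submitters' processing notes, STAR and hg19 were used; the version, annotation and junction filters are not given in the sources used here. The deposited values used were counts of uniquely mapped reads per junction, with multi-mapped counts and the largest overhang in nt (another deposited value) used in alternatives. They are raw whole numbers, and a junction missing from a library was counted as 0. Tables were joined, and junctions with motif codes 1 to 6 entered the share tests.

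Each event table (at least 20 reads at the site in every library and 10 on each side over the 6, exons of at most 500 nt, inclusion counts rounded) was fitted whole with edgeR 4.0.16 (quasi-likelihood, robust, legacy mode; R 4.3.3), with a term for each library, for the kind of count and for that kind in S34F. The last coefficient is the change in log2 odds, and the SE is the coefficient over the square root of F. Junction levels used TMM. A call needed an adjusted p under 0.05 and, for shares, a difference of 10 percentage points. DESeq2 1.42.0, limma 3.58.1, other filters, a replicate block and leaving out libraries were alternatives. The edgeR fits were also run on simulated data, with planted log2 changes larger than that of IRAK4 exon 4. That run does not show their sensitivity to a change of the size seen there. Tables were handled with pandas 2.3.3 and scipy 1.17.1 in Python 3.11.15.

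Named events were IRAK4 exon 4, MYD88 exon 2, tested events with a mean share from 5% to 95% in a group, called events, and each gene's main unannotated 5′ splice site. The stated numbering by best covered junctions would make the next exon, at 44165983 to 44166165, exon 4 of IRAK4; the cassette exon was kept. The genes, lists and events were chosen with earlier results of these data known. Other genes of the pathway and cell type markers were not analysed here, since no annotation of the build was used.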

Additional observations from a re-analysis of the deposited data

How the results depend on the processing

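No member event was called under any alternative run, in any of the 4 kinds of test. Some of these runs called little or nothing anywhere, so their lack of member calls adds nothing. Limma called 0 of all features for each kind of share. Without S34F replicate 3, calls over all features were 0 for cassette exons, 0 for junction levels and 4 for donor shares. IRAK4 exon 4 kept higher inclusion in S34F in the 12 alternatives that gave it a value, with log2 odds from 0.99 to 1.54 and adjusted p-values from 0.0714 (with multi-mapped reads) to 0.327 (at least 1 read). The filter of at least 50 reads left no IRAK4 or MYD88 event. The annotated MYD88 5′ site at 38182060, at 0.02 in log2 odds, turned to -0.036 with DESeq2, -0.13 with limma and -0.12 with multi-mapped reads, and ran from -0.33 to 0.34 when a library was left out.

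Leaving out each library in turn gave log2 odds from -1.23 to 0.019 for MYD88 exon 2 inclusion (above 0 without WT replicate 2), and from -0.21 to 1.01 for the junction that skips it at the exon 3 acceptor, and from -1.01 to 0.21 for the junction out of exon 2. For the main 5′ site of IRAK4 exon 6 the range was -1.36 to -0.61. The difference in junction RPM ran from -9.95 to 38.4 for IRAK1, from -2.97 to -0.074 for IRAK4 and from 0.38 to 4.36 for MYD88, and that in the unannotated share of IRAK4 from -0.19 to 0.23 percentage points. The causes were not tested.

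Deviations of same-numbered libraries correlated at -0.08, -0.02 and -0.06 in exon inclusion, and those of other pairs at -0.033 to 0.085. In junction levels the values were -0.174, -0.146 and -0.022, and -0.127 to 0.228 for other pairs. With 3 libraries per group, such values cannot show whether the libraries were handled in pairs. With the replicate block, IRAK4 exon 4 had log2 odds of 1.36 (edgeR adjusted p = 0.162), MYD88 exon 2 had -0.68, and the MYD88 5′ site at 38182060 had -0.013; the block changed no call of a member.

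Calls over all features depended on the settings. For cassette exons, 520 became 272 with DESeq2, 0 with limma (4309 at an unadjusted p under 0.05), 183 with the block, 0 without S34F replicate 3 and 1031 without WT replicate 1. For acceptor shares, 1088 became 150 with DESeq2, 0 with limma (9648 unadjusted), 77 without S34F replicate 3 and 1932 without WT replicate 1. For donor shares, 451 became 185 with DESeq2, 0 with limma (7794 unadjusted), 4 without S34F replicate 3 and 1210 without WT replicate 1. For junction levels, 226 became 1311 with DESeq2, 46 with the block, 5138 without a filter, and from 0 (without S34F replicate 3) to 583 (without S34F replicate 2) when a library was left out. With at least 1 or at least 50 reads, acceptor calls were 522 and 682, donor calls 223 and 298, and cassette calls 775 and 310. Depth limits the IRAK4 exon 4 value, with 20 to 52 reads per library at the exon 3 site.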

Other observations

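Multi-mapped reads, left out of the shares, made up 0.599% to 3.56% of the IRAK4 junction reads in WT and 1.62% to 3.24% in S34F. In IRAK1 they made up 2.01% to 2.52% and 1.88% to 2.26%, and in MYD88 0% to 1.1% and 0.327% to 4.85%, with S34F replicate 2 the highest. Within IRAK1 they were uneven between junctions. Over the 6 libraries, the junction that skips exon 12 had 23 beside 29 unique reads. The downstream acceptor of exon 12 had 33 beside 173, and the main acceptor 35 beside 1202. Shares from unique reads alone may therefore be too low for the skipping junction and the downstream acceptor. The IRAK1 region also held junctions on the opposite strand, at 0.568 to 1.02 unique reads per 1000000 in WT and 0.498 to 1.07 in S34F.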
